A study of Mus musculus with 6 samples.

Results

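S1-marked cells of mouse kidney are described here, 3272 of 34034 deposited kidney cells. They are droplets whose RNA carried more marker counts of the first segment of the proximal tubule than of the later segments. Each count is a unique molecular identifier (UMI), a random barcode on a captured RNA molecule, so that amplified copies are counted once. Cells with 200 to 3000 genes and at most 50% mitochondrial UMIs were kept, 24212 in all. A cell was called S1-marked when its UMIs of Slc5a2, Spp2, Car3, Slc34a3 and Apob summed to at least 4 and to more than either of 2 other sums. Those were the sum of the S2 markers Slc22a8, Slc22a6 and Acy3 and that of the S3 markers Slc22a7, Cyp2a4, Mep1b and Slc7a13. Cells with any UMI of Ptprc (the pan-leukocyte marker CD45) or Pecam1 (an endothelial marker) were left out, as were those with 4 or more UMIs of Krt8, F3 and Gdf15. The cells were thus chosen by measured UMI values, and the levels of these genes are given only as a description.

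The proximal tubule takes back most of the filtered glucose, amino acids, phosphate and bicarbonate, and its first convoluted stretch, S1, does most of this work. S1 cells carry the low-affinity glucose transporter SGLT2 at a tall brush border and a dense set of endocytic receptors and mitochondria, whereas the straight S3 segment uses the high-affinity transporter SGLT1. Proximal tubule cells also make glucose and run largely on fatty acids.

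The kidneys came from 12-week-old male C57BL/6 mice, and each of 3 conditions had 1 droplet library. Per the study's reporting summary, sequencing was done on a single replicate and all conditions of a replicate used tissue of the same mouse. In the control, minced tissue was shaken in collagenase for 60 min and then pipetted and vortexed. On the microfluidic platform, which recirculates collagenase through minced tissue and passes the suspension through a dissociation and filter device, cells were eluted at 15 min and, from the tissue that remained, at 60 min. All suspensions were sorted for cells that excluded a dead-cell dye. The 60 min platform library is therefore the later fraction of a tissue already sampled at 15 min, so that time and the order of elution cannot be told apart. Since every condition is a single library, differences between conditions could not be set against a spread of replicates, and they are given untested. Intervals are 95% intervals and cover counting error only.

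The S1-marked cells numbered 575 (control), 1797 (15 min) and 900 (60 min), with 3126608, 9328089 and 4975711 non-mitochondrial UMIs. Their depth was close between the libraries, with medians of 6214, 6572 and 6561 UMIs and 1781, 1816 and 1848 genes per cell. The median mitochondrial share was 17.6, 26.7 and 18.2%. Of the S1-marked cells, 3, 13 and 3 shared their barcode with a cell of another kidney library. Levels below are counts per 1000000 non-mitochondrial UMIs (CPM), summed over the S1-marked cells of a library and given in the order control, 15 min, 60 min unless said otherwise.

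The marker sum reached medians of 12, 17 and 13 UMIs per cell and a highest value of 102, 140 and 118. Slc5a2, the gene of SGLT2 on chr7:128265657-128272430 (GRCm38), stood at 593 (566 to 621), 1181 (1159 to 1203) and 803 (778 to 828). At least 1 UMI of Slc5a2 was found in 79.3, 95.6 and 90.1% of S1-marked cells. Cells marked as immune by at least 2 UMIs of Ptprc, which should lack the gene, had one in 2.36, 7.41 and 5.07% at median depths of 6487.5, 4828 and 5824.5 UMIs. After thinning every cell to 2000 UMIs, the shares were 54.5, 76.7 and 63.8% of S1-marked and 1.09, 4.55 and 1.75% of immune-marked cells. Thinning left out 39, 22 and 42 S1-marked and 46, 9 and 161 immune-marked cells as too shallow. These values describe a gene that the rule itself used.

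Spp2, which encodes the secreted phosphoprotein 24, followed the same order at 987, 1550 and 1025. Slc34a3, the phosphate transporter NaPi-IIc, stood at 146, 229 and 159, and Apob, the structural protein of lipoproteins, at 245, 389 and 303. Car3, a carbonic anhydrase better known from muscle and fat, went the other way at 838, 584 and 649. It was found in only 57.6, 54.8 and 54.7% of the cells, with up to 95, 87 and 46 UMIs in a single cell. Without Car3, 267 of the 3272 cells held fewer than 4 UMIs of the marker sum, namely 100, 74 and 93 cells or 17.4, 4.12 and 10.3%. These 267 cells had a median mitochondrial share of 8.28%, Slc5a2 at 133 and Slc34a1 at 1583, against 24.2%, 1036 and 5670 in the other 3005. Some of the cells, most of all in the control, thus reached the marker limit only through Car3. Their low Slc5a2 follows from how they were picked, since Slc5a2 is part of the remaining sum. Slc34a1 is not part of the rule. The S2 markers of the rule were also found in many S1-marked cells. Acy3 stood at 469, 505 and 398 and was found in 76.3, 78.5 and 71.4% of them. Slc22a8 stood at 208, 392 and 211, found in 56.5, 69.9 and 58.2%, and Slc22a6 at 82.5, 162 and 102, found in 25.7, 39.2 and 29.8%. Each S3 marker was found in at most 4.11% of the cells of a library.

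The 120 cells just outside the marker limit, with a sum of 3, were shallower than the 122 just inside, with a sum of 4, but similar in proximal tubule genes. Their median depth was 2230 against 2929 UMIs. Slc34a1, the main renal phosphate transporter NaPi-IIa, stood at 2443 and 2254, Slc5a12, a lactate transporter of the early segment, at 206 and 217, and Gatm, the first enzyme of creatine synthesis, at 3836 and 3981. Umod, the uromodulin gene of the thick ascending limb, was higher outside, at 367 against 40.7. Before the limits on Ptprc, Pecam1 and Krt8, F3 and Gdf15, 609, 1859 and 1020 cells passed the marker sums. Those limits removed 34, 62 and 120 of them.

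Markers of other cells were low but moved with the library. Umod and Slc12a1 of the thick ascending limb summed to 20.1, 12.1 and 141 and Slc12a3, Pvalb and Calb1 of the distal convoluted tubule to 25.9, 2.47 and 55.3. The 6 macrophage markers, Cd74 among them, summed to 115, 100 and 318 and the 5 endothelial markers to 5.12, 14.2 and 35.4. The 7 lymphocyte markers summed to 14.4, 0.965 and 4.82 and the 4 stromal markers to 17.6, 0 and 2.21. RNA of thick ascending limb and macrophages was therefore most plentiful among the S1-marked cells of the 60 min library.

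S1-marked cells made up 9.77% (9.02 to 10.6) of control cells that passed the limits, against 21.4% (20.5 to 22.3) of the 15 min cells and 9.06% (8.5 to 9.64) of the 60 min cells. The 15 min share was 11.6 percentage points (10.5 to 12.8) above the control, while the 60 min share differed from it by -0.711 points (-1.67 to 0.223). A different order appeared among proximal tubule cells alone. Of the cells marked as S1, S2 or S3 by the same rule applied to each marker sum, the S1-marked cells were 22.2% (20.6 to 23.8), 26.7% (25.6 to 27.8) and 37.7% (35.8 to 39.7). The 60 min fraction thus exceeded the control by 15.5 points (13.0 to 18.0) and the 15 min fraction by 11.0 points (8.81 to 13.2). S2-marked cells numbered 1946, 4746 and 1360 and S3-marked cells 72, 190 and 127. The level of Slc5a2 itself differed between the libraries, and its part in these shares was not tested.

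**Figure D1:**
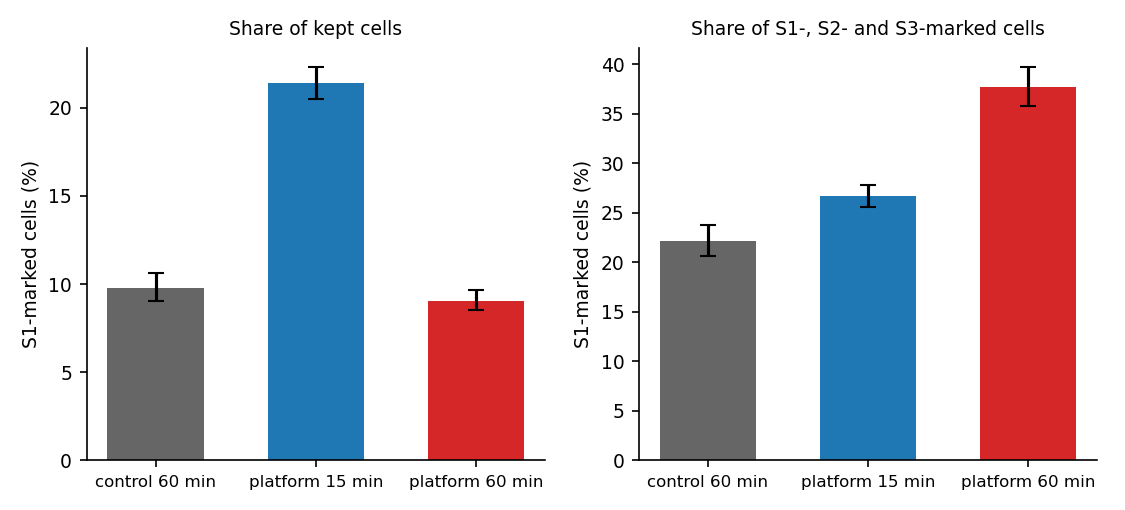
S1-marked cells as a percentage of all kept kidney cells (left) and of the S1-, S2- and S3-marked cells (right) in the 3 libraries, with exact binomial 95% intervals as error bars. Among all kept cells the 15 min library stands highest at 21.4%, and among the segment-marked cells the 60 min library does at 37.7%.

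Early segment genes outside the rule were mostly higher in S1-marked cells than in the later segments, and later segment genes were lower. The S1-marked were compared with the S2- and S3-marked cells within each library, as a description, because all 3 kinds were chosen by marker UMIs of the same cells. Genes at a mean of at least 20 CPM were compared. Against S2, 190 of 4779 genes (3.98%) were more than 2-fold higher and 184 (3.85%) more than 2-fold lower in 3 of 3 libraries. Against S3, 398 of 4711 (8.45%) were higher and 280 (5.94%) lower. Of 10 early segment genes outside the rule, 8 were higher than in S2 and 8 than in S3, with median log2 ratios of 1.89 and 2.98 against 0.13 and 0.41 over all compared genes.

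Slc5a12 stood at 247, 350 and 335 in S1-marked, at 34.0, 39.3 and 60.6 in S2-marked and at 0, 2.7 and 4.37 in S3-marked cells. No S1 level of Slc5a12 overlapped those of the later segments. Gatm stood at 3583, 3661 and 3266 against 703, 543 and 926 in S2-marked and 12.2, 49.5 and 61.2 in S3-marked cells, and it led the genes higher than in S3 with 105-fold. Gpx3, the extracellular glutathione peroxidase that the proximal tubule releases into plasma, was 2.79-fold higher than in S2 and 5.09-fold higher than in S3. Slc4a4, the sodium bicarbonate exporter of the basolateral membrane, was 2.52-fold and 3.83-fold higher. The 2 early genes not past 2-fold against S2 were Slc34a1 at 1.14-fold and Pck1, the rate-limiting enzyme of gluconeogenesis, at 1.12-fold.

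All 7 compared genes of the later segment list were lower than in S2 and all 9 lower than in S3, with median log2 ratios of -4.02 and -6.50. Kap, an androgen-regulated kidney protein, stood at 1465, 3539 and 1482 against 63034, 116829 and 64204 in S2-marked cells. Napsa, a lysosomal aspartic protease, was 16.3-fold lower than in S2 and 73.9-fold lower than in S3. Cyp7b1, an oxysterol hydroxylase, had 0 UMIs in the S1-marked cells of all 3 libraries and stood at 238, 181 and 494 in S3-marked cells. Slc5a1, the gene of SGLT1, reached 0, 0.75 and 0.804 in S1-marked against 18.3, 24.3 and 23.3 in S3-marked cells. SGLT1 was thus close to 0 in the S1-marked cells of every library.

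**Figure D2:**
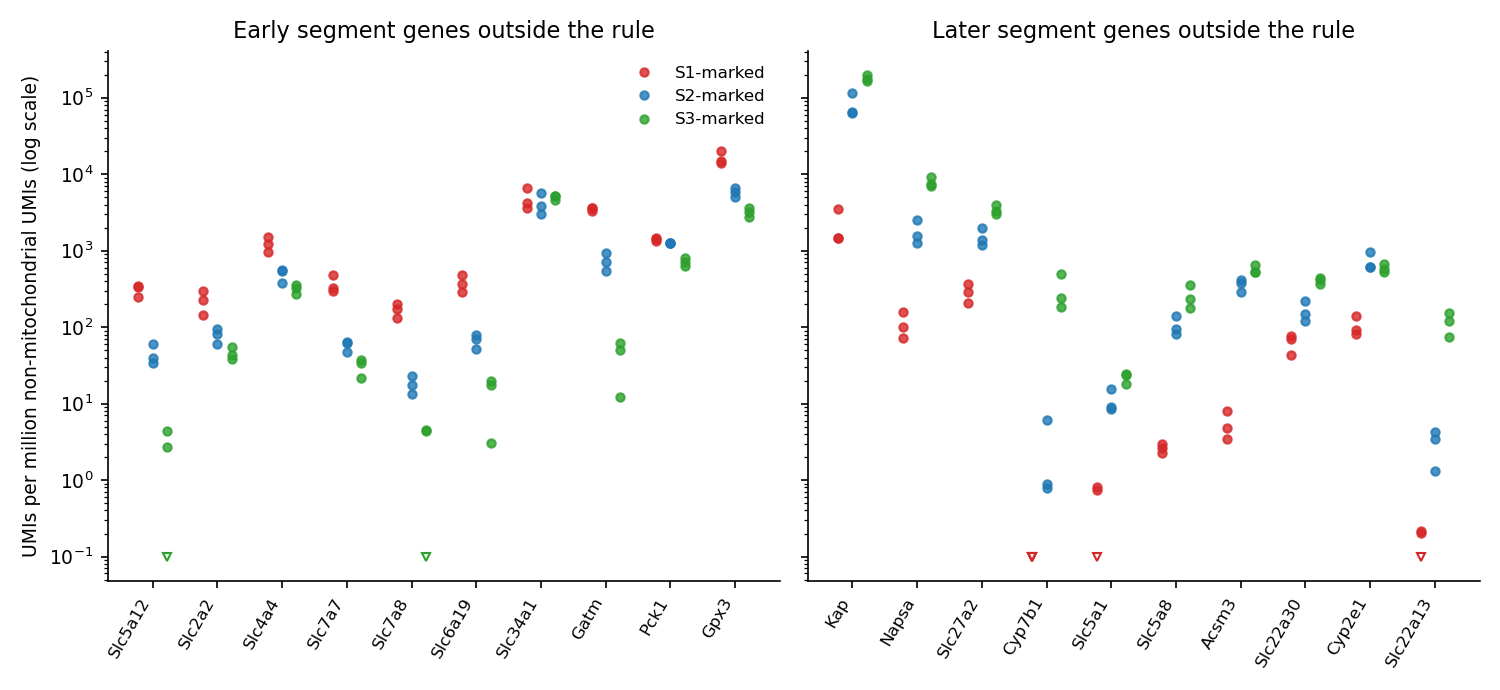
Levels of 10 early and 10 later segment genes outside the rule, in CPM on a log axis, with 1 point per library for S1-, S2- and S3-marked cells. Open triangles on the 0.1 line mark libraries with 0 UMIs. For Slc5a12 and Gatm the S1 points lie above all others, for Kap and Napsa below, and for Slc34a1 and Pck1 the S1 and S2 points overlap or nearly so.

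The genes outside the rule that set S1 apart from S2 most were of several kinds. Snhg11, a non-coding host gene of small nucleolar RNAs, was 27.6-fold higher at 74.5, 125 and 197 against 1.41, 6.32 and 9.77. The glucuronosyltransferase Ugt2b34 was 22.2-fold, the serine synthesis enzyme Phgdh 20.7-fold and the glutathione transferase Gsta4 15.6-fold higher. Spp1, which encodes osteopontin and is also known as a tubule injury gene, stood at 631, 1009 and 747 against 35.4, 32.7 and 61.7. S1-marked cells held 3.43, 5.24 and 4.13 UMIs of Spp1 per cell, against 0.274, 0.0988 and 0.289 in immune-marked cells. Apoe, a lipoprotein ligand, stood at 257, 425 and 324 against 20.6, 10.2 and 60.3, and the membrane skeleton gene Epb41l3 was 10.9-fold higher. D630023F18Rik and Gm10639 were also among the 10 highest.

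The genes furthest below S2 were likewise mixed. Slco1a1, an organic anion transporter, stood at 1.28, 9.01 and 2.01 against 284, 518 and 287, a 122-fold difference. Slc5a10, a mannose and fructose transporter, reached 1.92, 2.79 and 0.804 against 92.4, 191 and 107. The acyl-CoA synthetase Acsm3 was 69.7-fold, angiotensin-converting enzyme Ace 44.0-fold, the ketone body enzyme Bdh1 39.8-fold and the monocarboxylate transporter Slc5a8 39.7-fold lower. The homeobox gene Irx3 at 39.3-fold, the sulfotransferase Chst7 at 33.1-fold, Gm48281 and Kap filled the 10 lowest. Against S3, the protease inhibitor gene Serpina1d at 551-fold, the organic anion transporter genes Slc22a19 and Slc22a13 and the steroid enzyme gene Akr1c18 were among the lowest. Higher than in S3 after Gatm were the phosphodiesterase Pde1a at 69.5-fold, Slc5a12 at 64.5-fold, Clec2h, a lectin-like gene, at 55.3-fold, the cytochrome P450 gene Cyp2d26 at 52.2-fold and Dpep1 at 39.1-fold.

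Of 14 compared amino acid transport genes, 7 were higher and 2 lower in S1 than in S2, against 3.98 and 3.85% of all compared genes. The neutral amino acid importer Slc6a19 (B0AT1) stood at 286, 483 and 365 against 51.0, 69.9 and 78.0. The basolateral exchangers Slc7a8 and Slc7a7 were 9.5-fold and 6.35-fold higher, and their shared heavy chain Slc3a2 was 5.34-fold higher. Slc16a10, an aromatic amino acid carrier, and Slc43a2, which carries large neutral amino acids, were 6.61-fold and 5.16-fold higher. For the cystine transporter, the light chain Slc7a9 was 2.27-fold higher in S1 than in S2, whereas the heavy chain Slc3a1 was 1.52-fold lower than in S2 and 3.93-fold lower than in S3. Slc6a18, the B0AT3 importer, reached 1.6, 6.54 and 5.23 in S1-marked against 260, 204 and 287 in S3-marked cells.

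Of 4 compared glucose and hexose transporters, 2 were higher and 1 lower than in S2, and of 9 genes of gluconeogenesis and fructose use 2 were higher. Of 14 fatty acid oxidation genes, 1 was higher and 4 were lower, with a median log2 ratio of -0.50. Over all compared genes, 3.98% were higher and 3.85% lower than in S2, with a median of 0.13. Slc2a2, the basolateral glucose exporter GLUT2, was 2.76-fold higher than in S2 and Slc2a5, a fructose transporter, 2.31-fold higher. Glucose-6-phosphatase G6pc, the last step of glucose release, was 2.63-fold higher. Acaa2, a mitochondrial thiolase and the higher gene of fatty acid oxidation, was 3.19-fold higher. Lipoprotein lipase Lpl, which is not among those oxidation genes, was 12.5-fold lower. Of the brush border enzymes, alkaline phosphatase Alpl was 3.87-fold and dipeptidase Dpep1 4.18-fold higher, and gamma-glutamyltransferase Ggt1 was 5.41-fold and meprin Mep1a 6.87-fold lower. The water channel Aqp1 was 2.44-fold lower in S1 than in S2 and 6.14-fold lower than in S3. The endocytic receptor Lrp2 (megalin) was 1.58-fold higher than in S2 and stayed under 2-fold, as did the transcription factor Hnf4a at 1.09-fold.

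Between the libraries, 4978 genes outside the rule, at a mean of at least 20 CPM, were compared in the S1-marked cells. From the control to 15 min, 49 genes (0.984%) were more than 2-fold higher and 12 (0.241%) more than 2-fold lower. The 60 min library had 72 genes (1.45%) higher and 1 (0.0201%) lower than the control, and 45 (0.904%) higher and 2 (0.0402%) lower than the 15 min library. These comparisons share libraries and are not independent. Within 1.5-fold lay 88.5, 93.2 and 95.4% of the genes for 15 min over control, 60 min over control and 60 min over 15 min. Scaling to all UMIs instead of non-mitochondrial UMIs shifted the median log2 ratio by -0.15 for 15 min over control and by 0.14 for 60 min over 15 min.

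At 15 min, transport genes of the S1 cell stood moderately above the control, mostly by less than 2-fold. All 13 compared amino acid transport genes had log2 ratios above 0, between 0.54 and 0.90 with a median of 0.65, and none passed 2-fold, against a median of 0.02 over all compared genes. Slc34a1 stood at 3606, 6578 and 4183, Slc2a2 at 145, 294 and 227 and Lrp2 at 822, 1314 and 1109. The 11 compared brush border genes had a median of 0.75. Of these, 2 were more than 2-fold higher, against 0.984% of all compared genes, among them the meprin gene Mep1a at 63.3, 130 and 87.6. The 82 cytosolic ribosomal protein genes all had log2 ratios below 0, with a median of -0.27, and the 75 nuclear-encoded respiratory chain genes had a median of -0.09. The 9 genes of gluconeogenesis and fructose use had a median of 0.03 and the 8 proximal tubule transcription factors also 0.03.

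Among the genes furthest above the control at 15 min were Gm45792 at 3.3-fold (2.24 to 5.06), the ubiquitin ligase Herc2 at 2.92-fold (2.03 to 4.32), the secretory pathway gene Tmed5 at 2.54-fold, the scaffold gene Akap9 at 2.4-fold and the zinc transporter Slc39a5 at 2.37-fold. Mfsd4b1, a sodium-dependent glucose carrier, and the phosphatase Impad1 were at 2.34-fold and 2.29-fold. Kap was at 2.42-fold (2.34 to 2.49), and cells that should lack it held similar or higher levels. S1-marked cells held 7.97, 18.4 and 8.19 UMIs of Kap per cell, immune-marked cells 7.45, 37.2 and 9.74 and endothelial-marked cells (at least 2 UMIs of Pecam1 and none of Ptprc) 7.14, 24.4 and 7.91. S2-marked cells held 367, 748 and 377.

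Of the 12 genes lower at 15 min, several belong to other parts of the nephron or to immune cells. Klk1, tissue kallikrein of the distal nephron, stood at 92.4, 4.93 and 69.5, 18.7-fold (13.7 to 26.2) lower at 15 min than in the control. A single control cell held 194 of the 289 Klk1 UMIs, and leaving out the cell with the most UMIs of a gene in each library gave 30.4, 4.18 and 48.3, a 7.27-fold difference. Intervals of counting error do not cover such single cells. S1-marked cells held 0.503, 0.0256 and 0.384 UMIs of Klk1 per cell and endothelial-marked cells 0.565, 0.0841 and 0.825. S100g, a calcium-binding protein of the distal nephron, stood at 218, 39.2 and 120, or at 97.1, 38.6 and 87.3 without those cells, 1 of which held 379 of the 682 control UMIs. Without them S100g was 2.51-fold lower at 15 min in place of 5.56-fold. Tmsb4x, an actin-binding protein abundant in immune cells, stood at 101, 19.1 and 146. Ccl4, a macrophage chemokine, was at 7.04, 1.29 and 132, and Wfdc15b, a protease inhibitor domain gene, at 17.9, 4.07 and 42.4. The part of free RNA in these differences was not tested.

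The remaining lower genes were mostly early response genes, which cells switch on within minutes of a stimulus. Fos, a subunit of the AP-1 transcription factor, stood at 83.8, 23.4 and 175, 3.59-fold (2.98 to 4.31) lower at 15 min than in the control. Egr1, a zinc finger factor of the same kind, stood at 29.7, 1.61 and 67.3, Junb at 63.6, 13.2 and 81.8, the growth inhibitor Btg2 at 20.8, 2.68 and 40.6, and Ier2 at 21.1, 8.15 and 49.2. With no upper limit on genes per cell, the log2 ratios of 15 min over control were -0.23 for Fos, -0.98 for Junb, -0.96 for Btg2 and -0.30 for Ier2, all under 2-fold, and -1.03 for Egr1. Btg2 was 3.67-fold in place of 7.76-fold lower without the cell of most UMIs in each library. The inhibitory factor Id1 stood at 37.1, 11.8 and 20.5. For Fos, Egr1, Junb, Btg2 and Ier2 the 15 min library was lowest and the 60 min library highest. Of 9 compared genes from the stress list used in the study, 3 were more than 2-fold lower at 15 min than in the control, and 5 were higher at 60 min than in the control. Their median log2 ratios were -0.27 and 1.07, and 2.11 for 60 min over 15 min. The 12 genes are common stress response genes that the study chose to show for these samples, and are no independent evidence of direction. Of 7 other early response genes, 2 were lower at 15 min and 4 higher at 60 min than in the control, against those same shares. Their median log2 ratios were -0.76 and 1.22 against 0.02 and 0.03 over all compared genes.

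Furthest above the control at 60 min were Ccl4 at 18.7-fold (12.3 to 30.1), or 9.5-fold without the cell of most Ccl4 UMIs in each library, which at 60 min held 354 of 656, the heat shock gene Hspa1b at 18.4-fold (13.5 to 25.6), Umod at 7.0-fold (5.22 to 9.58) and Hspa1a at 6.87-fold (5.94 to 7.99). Fosb, another AP-1 subunit, was 4.75-fold higher, at 123 against 25.9, and Malat1, a non-coding RNA that stays in the nucleus, 3.8-fold, at 34125 against 8988. Klf6, an early response factor, was 3.77-fold higher, at 199 against 52.8, and the AP-1 subunit gene Jun 3.68-fold, at 924 against 251. With no upper limit on genes per cell, Fosb, Malat1, Klf6 and Jun were all under 2-fold, at log2 ratios of 0.90, 0.63, 0.65 and 0.46. H2-Eb1, an MHC class II gene, was 3.26-fold higher. The gene lower than in the control was the non-coding AY036118 at 869, 643 and 362. Against the 15 min library, Ccl4 at 102-fold, or 56.7-fold without those cells, Egr1 at 41.9-fold, Hspa1b at 34.9-fold, Hspa1a at 20.6-fold and Btg2 at 15.1-fold led the genes higher at 60 min. Klk1, Umod, Wfdc15b, Tmsb4x and Fos followed at 14.1-fold, 13.6-fold, 10.4-fold, 7.65-fold and 7.51-fold. Lower than at 15 min were Kap and Ces1d, a carboxylesterase, at 187, 368 and 171.

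Ccl4 and Umod were found at similar levels in cells that should lack them. At 60 min, S1-marked cells held 0.607 (0.557 to 0.66) UMIs of Umod per cell, S2-marked cells 0.605 and immune-marked cells 0.556, with 146 of the 546 UMIs of S1-marked cells in a single cell. For Ccl4 the values were 0.729 in S1-marked, 0.495 in S2-marked and 0.5 in endothelial-marked cells, against 74.7 in immune-marked cells. Cd74, which like H2-Eb1 belongs to antigen presentation, was at 1.33 in S1-marked and 1.36 in S2-marked cells. Jun and Hspa1a behaved otherwise, with 5.11 and 2.39 UMIs per S1-marked cell against 1.37 and 0.671 per S2-marked cell in the same library. Umod, Klk1 and Cd74 were thus alike in S1- and S2-marked cells to within 2-fold at 60 min, while Jun and Hspa1a were more than 3-fold apart. The gap for Jun and Hspa1a was smaller among cells of like Malat1 level, as given below.

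**Figure D3:**
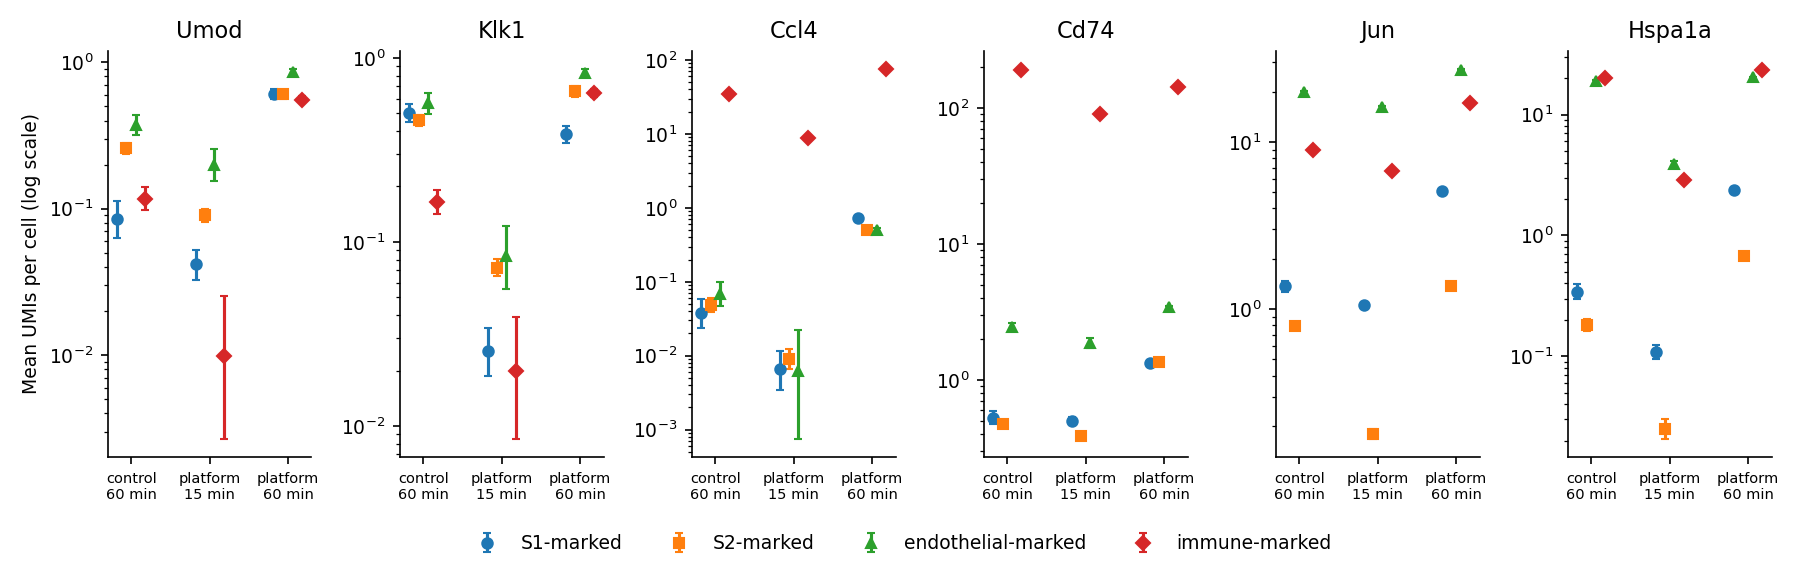
Mean UMIs per cell of 6 genes in S1-, S2-, endothelial- and immune-marked cells of the 3 libraries on log axes, with exact Poisson 95% intervals, which are smaller than the marker for many points. At 60 min the S1 and S2 points coincide for Umod (0.607 and 0.605) and Cd74 but not for Jun (5.11 and 1.37) or Hspa1a (2.39 and 0.671).

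Among 7 compared heat shock genes, 4 were more than 2-fold higher at 60 min than in the control, against 1.45% of all compared genes. Their median log2 ratio was 1.44, against 0.03 over all compared genes. Hspa1a stood at 63, 21 and 433 and Hspa1b at 13.4, 7.08 and 247. Both encode the inducible chaperone HSP70. Their partners Hsph1, a nucleotide exchange factor, and Dnajb1, a J-domain co-chaperone, stood at 37.1, 36.7 and 105 and at 31.3, 28.7 and 84.8. Hsp90aa1, the inducible HSP90 and a member of the study's list, stood at 629, 627 and 1326. With no upper limit on genes per cell, the log2 ratio of Hsp90aa1 at 60 min was 0.55 over control and 0.77 over 15 min, both under 2-fold. With the limit both were 1.08. The constitutive chaperone Hspa8 was nearly level at 2529, 2526 and 2237. In S2-marked cells the ratios of 60 min over control were 3.65-fold for Hspa1a, 4.04-fold for Hspa1b, 1.72-fold for Jun and 1.1-fold for Hsp90aa1.

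**Figure D4:**
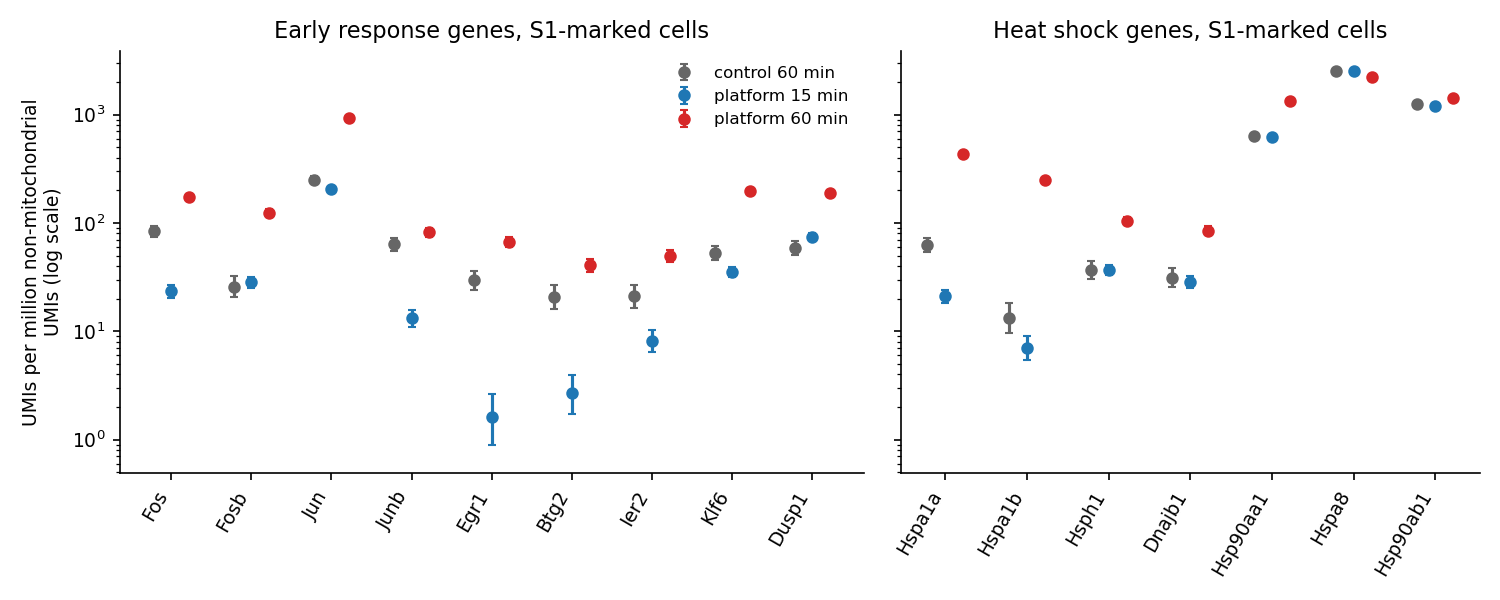
Levels of 9 early response and 7 heat shock genes in the S1-marked cells of each library, in CPM on a log axis, with exact Poisson 95% intervals. The 60 min library is highest for all genes shown but Hspa8, and Hspa1a (433 against 63) and Hspa1b (247 against 13.4) are the furthest above the control.

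The promoters of 3 genes that were higher at 60 min are shown, as the 250 bases before the start site from RefSeq (GRCm38.p6). They were searched for patterns of the sites through which heat shock and AP-1 factors are known to act. The minus strand carries all 3 genes. Hspa1a is at chr17:34972157-34972406, Hspa1b at chr17:34959239-34959488 and Jun at chr4:95052223-95052472. Capitals mark matches to GAANNTTC, the core of a heat shock element, to TGANTCA, the AP-1 site, and to TGANNTCA, which covers cyclic AMP response elements. All 3 patterns read the same on either strand.
Hspa1a: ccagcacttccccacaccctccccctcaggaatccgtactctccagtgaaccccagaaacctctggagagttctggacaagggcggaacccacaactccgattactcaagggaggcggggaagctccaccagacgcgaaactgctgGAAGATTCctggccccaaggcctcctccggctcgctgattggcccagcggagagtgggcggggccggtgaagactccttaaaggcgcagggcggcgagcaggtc
Hspa1b: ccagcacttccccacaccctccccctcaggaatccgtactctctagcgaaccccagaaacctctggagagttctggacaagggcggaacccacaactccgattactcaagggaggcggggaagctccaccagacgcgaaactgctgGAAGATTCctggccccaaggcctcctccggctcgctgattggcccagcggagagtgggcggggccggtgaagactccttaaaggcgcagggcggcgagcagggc
Jun: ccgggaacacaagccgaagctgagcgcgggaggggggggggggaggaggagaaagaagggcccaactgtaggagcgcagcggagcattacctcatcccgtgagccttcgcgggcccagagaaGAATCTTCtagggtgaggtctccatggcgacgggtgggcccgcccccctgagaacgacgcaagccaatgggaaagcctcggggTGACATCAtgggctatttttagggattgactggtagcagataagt

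Hspa1a and Hspa1b hold the same match, GAAGATTC, 96 bases before the start site. They share a run of 201 identical bases in this window, which lies outside the transcripts. Near-identical transcripts can exchange reads. The transcripts of the 2 genes were not compared, so the split between them is less certain than their sum. Jun holds GAATCTTC 120 bases and TGACATCA 37 bases before its start. Over all 32851 promoters of the same length, 6.69% hold GAANNTTC, 6.75% TGANTCA and 11.9% TGANNTCA. None of the 3 promoters shown holds TGANTCA. Of 9 promoters of 7 heat shock genes, 4 hold GAANNTTC (Hspa1a, Hspa1b, Hspb1 and Hspe1), 1 holds TGANTCA (Hspa5) and 0 hold TGANNTCA. Of 10 promoters of 9 genes of the study's stress list, 2 hold GAANNTTC (Hspd1 and Jun), 0 hold TGANTCA and 2 hold TGANNTCA (Jun and Jund). Of 15 promoters of 11 other early response genes, 0 hold GAANNTTC or TGANTCA and 3 hold TGANNTCA (Btg2, Dusp1 and Klf6). A match is a description of the letters and no evidence of binding.

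Malat1 split the cells into unequal groups, with a median of 1, 1 and 2 UMIs and a highest value of 2900, 3451 and 4108 per cell. Limits of 10 and 100 UMIs were set after this was seen. Only 21, 105 and 119 S1-marked cells held 100 or more, which is 3.65% (2.27 to 5.53), 5.84% (4.8 to 7.03) and 13.2% (11.1 to 15.6), while 28, 96 and 53 lay between the limits. This order depended on the upper limit on genes per cell. With no such limit the shares at 100 or more were 11.3, 26.8 and 19.8%, highest at 15 min. Among immune-marked cells 78.2, 73.3 and 82.9% and among endothelial-marked cells 87.8, 88.2 and 93.0% reached 100, at similar or lower depth, and among S2-marked cells 0.925, 0.611 and 3.31% did. Most of the S1- and S2-marked droplets thus held almost no Malat1, while most immune- and endothelial-marked cells held 100 or more. Whether such droplets were intact cells cannot be told from the deposited counts, which bears on every level and share of S1-marked cells given here.

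The S1-marked cells with 100 or more Malat1 UMIs gave 4.33, 7.64 and 13.7% of the non-mitochondrial UMIs. They gave 51.7, 81.9 and 89.1% of the Jun UMIs, 64.5, 75.0 and 90.1% of those of Hspa1a and 31.0, 69.7 and 91.7% of those of Hspa1b. For Fos the shares were 24.4, 88.5 and 75.0% and for Klf6 43.6, 38.7 and 86.8%, so that these cells gave most UMIs of all 5 genes at 60 min, but in the control only of Jun and Hspa1a. Without the cell of most UMIs, the control shares of Jun and Hspa1a were 46.6 and 47.8%. The apical transporter Slc34a1 was spread more evenly, with 9.88, 9.71 and 22.8%. In these cells Jun stood at 3000, 2186 and 6018, against 114, 38.9 and 103 in cells with fewer than 10 Malat1 UMIs. Hspa1a stood at 938, 206 and 2852 against 22.8, 5.48 and 47.9, and Neat1, another nuclear non-coding RNA, at 1906, 1967 and 1999 against 8.76, 15.9 and 16.7. Neat1 was level between the libraries within the high group, with ratios of 1.03 (0.903 to 1.18) at 15 min and 1.05 (0.917 to 1.2) at 60 min over the control.

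Within the groups the differences between libraries changed in size. Jun at 60 min over control, 3.68-fold over all S1-marked cells, was 2.01-fold (1.81 to 2.23) in the high group and 0.91-fold (0.785 to 1.06) in the low group. Hspa1a, 6.87-fold over all cells, was 3.04-fold (2.54 to 3.67) and 2.1-fold (1.58 to 2.83), and Hspa1b was 17.2-fold (10.0 to 32.4) and 2.45-fold (1.58 to 3.92). Fos at 15 min was 1.75-fold (1.3 to 2.33) below the control in the high and 21.7-fold (14.1 to 34.7) in the low group, and Hspa1a was 4.55-fold (3.56 to 5.81) and 4.16-fold (2.79 to 6.24) below. In the high group a single cell per library held 38 of 64, 31 of 193 and 62 of 655 UMIs of Fos. For Hspa1a it was 63 of 127, 25 of 147 and 124 of 1942. The ratios within the groups were not computed without such cells, which the intervals do not cover. Slc34a1 at 15 min was 1.95-fold (1.91 to 1.99) above the control in the low group and 1.02-fold (0.953 to 1.08) in the high group. Between the segments at 60 min, Jun in the low group stood at 103 in S1-marked and 115 in S2-marked cells, and Hspa1a at 47.9 and 45.2. In the high group Jun stood at 6018 in S1-marked and 3251 in S2-marked cells, and Hspa1a at 2852 and 1909. The part of the Malat1 groups in the differences between libraries or segments was not tested further. The high group held 64.2% of the Ccl4 UMIs at 60 min, but 22.2% without the single cell that held 354 of them.

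The upper limit of 3000 genes removed cells of high and of low Malat1. Without it, S1-marked cells with 100 or more Malat1 UMIs numbered 85, 711 and 250 in place of 21, 105 and 119. Those with fewer than 10 numbered 635, 1827 and 940 in place of 526, 1596 and 728. Cells that met every other part of the rule but held over 3000 genes numbered 179, 852 and 362, with Malat1 at 44547, 105854 and 45166. Jun in them stood at 1721, 1532 and 1650, nearly level with high and low Malat1 cells summed. In cells under 2000 genes it stood at 199, 72.3 and 652. Hspa1a stood at 167, 162 and 508 in the cells over 3000 genes and at 37.9, 4.92 and 279 in those under 2000. With these cells put back, the log2 ratio at 60 min over control was 0.18 for Dusp1, a phosphatase of the early response, and 0.14 for Neat1, which were 1.68 and 1.65 with the limit. Those of Hspa1a at 2.07 and Hspa1b at 2.84 stayed past 2-fold. At 15 min over control, Hspa1a at -0.17 was no longer past 2-fold. Within the high Malat1 group without the gene limit (85, 711 and 250 cells), Jun was at 1.02-fold (0.984 to 1.05) and Hspa1a at 3.24-fold (2.97 to 3.54) at 60 min over control, and at 15 min Jun was 2.45-fold (2.38 to 2.53) and Fos 2.37-fold (2.18 to 2.58) below the control.

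**Figure D5:**
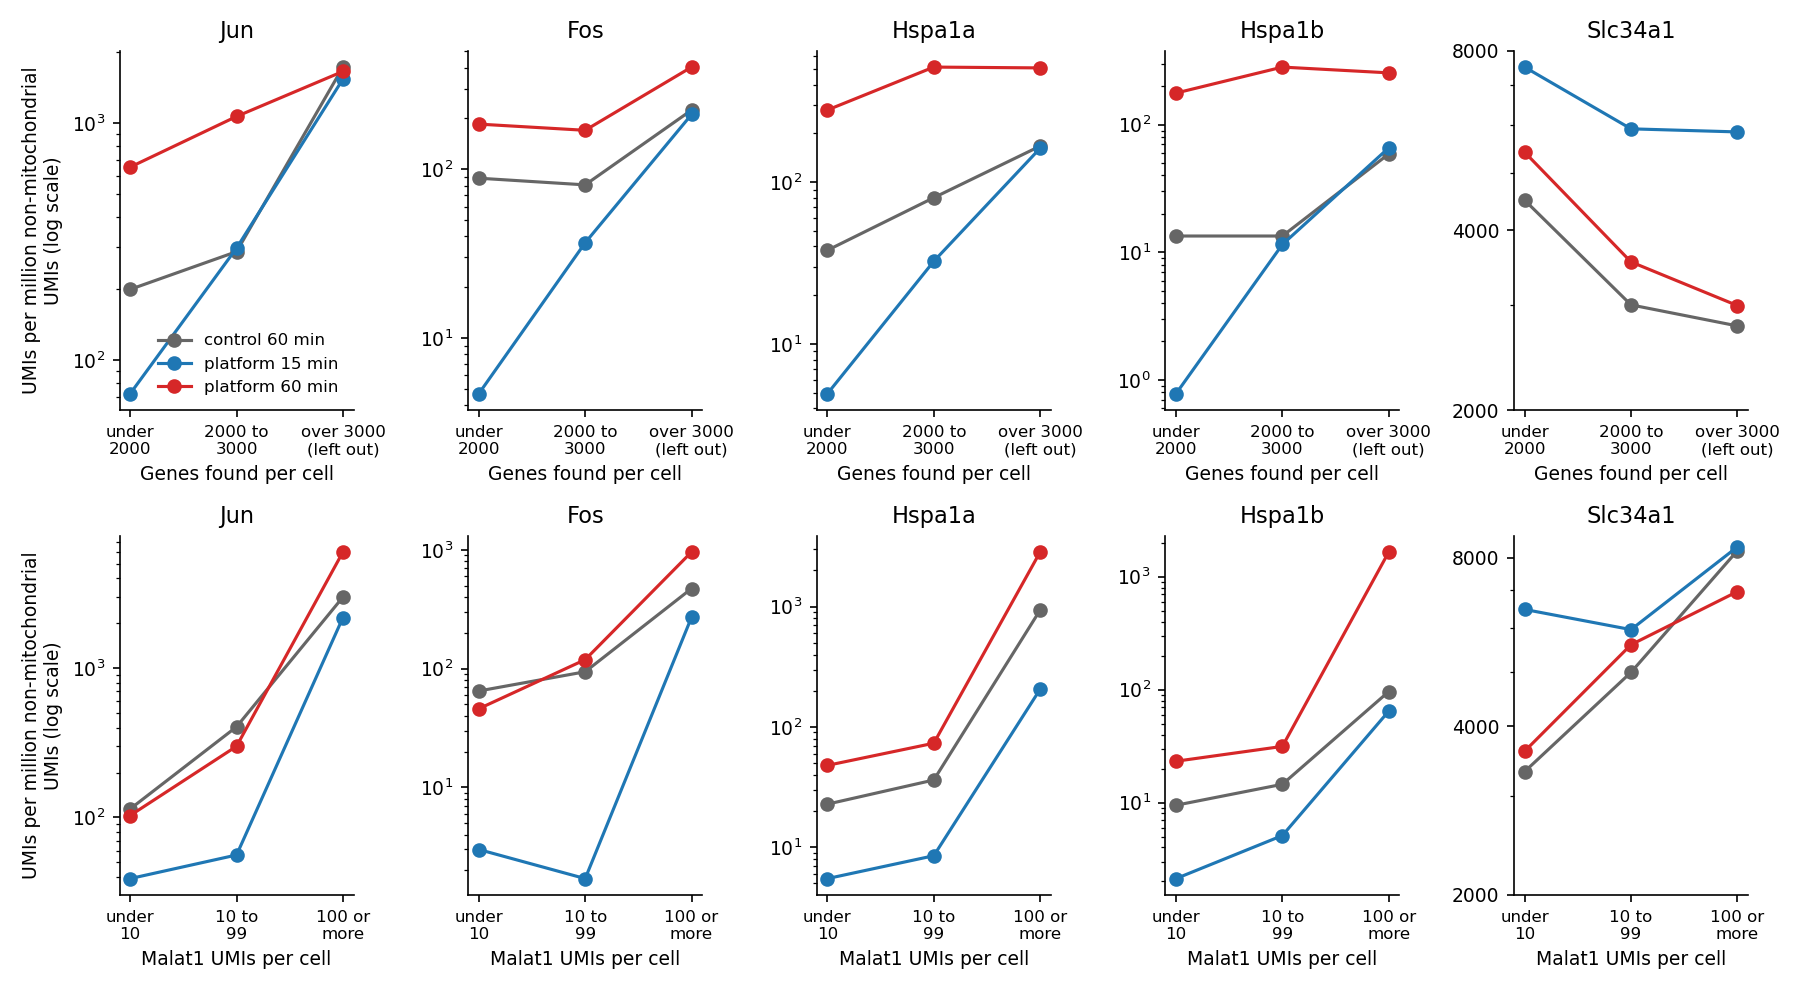
Levels of 5 genes in CPM on log axes, by the number of genes found per cell (top, where cells over 3000 genes are those left out by the rule) and by Malat1 UMIs per S1-marked cell (bottom), with 1 line per library. Jun is nearly level between the libraries in cells over 3000 genes (1721, 1532 and 1650), Hspa1a and Hspa1b stay highest at 60 min in all groups, and Slc34a1 at 15 min stands clear of the other libraries in cells with fewer than 10 Malat1 UMIs (6466 against 3320 and 3610) but not in those with 100 or more.

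The mitochondrial share went with the transporter level. In S1-marked cells under 20% mitochondrial UMIs, Slc34a1 stood at 2407, 4034 and 2912, and in the others at 5656, 8025 and 6462. Slc5a2, a gene of the rule, stood at 380, 696 and 522 against 957, 1456 and 1307. At 15 min, 70.5% of S1-marked cells were at or above 20%, against 43.5% in the control and 45.9% at 60 min. Slc34a1, which the rule did not use, was highest at 15 min on both sides of this limit. Malat1 did not follow one order, with 10768 against 5948 in the control, 35534 against 4729 at 15 min and 28692 against 43870 at 60 min on the low and high side. Of the 13 mitochondrial mRNAs, mt-Nd3 had the highest ratio of 15 min over control, at 1.68-fold as a share of all UMIs, and mt-Atp8 the lowest, at 0.823-fold.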

How the data were processed

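Droplet RNA sequencing of 3 mouse kidney libraries was used, 1 per condition. Per the submitters' processing notes and the study's methods, the authors aligned reads to mm10 and counted UMIs with Cell Ranger 3.1.0, merged the libraries with its Aggr command, which equalises depth, and deposited unfiltered UMI counts of genes by cells. The annotation version is not given in the sources used here. Libraries were assigned through the barcode suffix and the aggregation table, and 0 other value columns were left unused. The limits on genes and mitochondrial share were those of the study. No doublet caller was run. Doublets were limited by the upper limit on genes and by the rule's limits on Ptprc, Pecam1 and the other marker sums.

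Counts were summed over S1-marked cells per library and scaled to counts per 1000000 non-mitochondrial UMIs (CPM). Genes of the rule, mitochondrial genes and genes under a mean of 20 CPM were not compared. Intervals are exact binomial (Clopper-Pearson) for shares, Newcombe for differences of shares, exact Poisson for levels and exact conditional binomial for ratios, at 95%. UMIs are counted per molecule, and the intervals do not cover differences between animals or libraries. A count of 0 was set to 3 counts in a library for a ratio. The 10 highest and 10 lowest genes past 2-fold in each comparison, the genes of the rule and those of the lists on which a result turns were named, with at most 2 predicted genes per list. Some genes that this rule names are not reported here. Fos, Umod and other genes shown by Malat1 or per cell were picked after their values were seen. The members of the cell group and the gene lists were chosen with earlier results of these data known. Other marker limits, gene and mitochondrial limits, scalings, filters and thinning to 2000 UMIs (seed 1) were tried as alternatives. Gene positions are from GENCODE for GRCm38 and promoter sequences from RefSeq. Python 3.11.15, numpy 2.4.6, scipy 1.17.1, pandas 2.3.3 and matplotlib 3.10.9 were used, and the scripts were tested on simulated data.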

Additional observations from a re-analysis of the deposited data

How the results depend on the processing

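Counting error was the only error that could be measured, so all ratios describe these 3 libraries. No paired analysis was possible because the labels carry no replicate numbers and each condition has 1 library, although the conditions shared a source mouse, and no replicate could be left out. The limits on Car3, on Krt8, F3 and Gdf15 and on UMIs of Umod, Ccl4, Cd74 and Klk1, and leaving out the cell of most UMIs of each gene, were chosen after seeing the data. The 89 recomputed values of shares, counts and lists not given here stayed within the counting interval or within 1.5 times. Of the recomputed values of single genes, 69 fell below 2-fold, 805 stayed on their side, and Malat1 at 60 min over 15 min turned to -0.73 (log2) with no upper limit on genes.

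Shares of kept cells in the order control, 15 min, 60 min were 7.02, 18.8 and 7.13% with a marker sum of at least 8, 6.88, 16.8 and 7.0% after thinning, 7.88, 14.1 and 7.36% with at most 25% mitochondrial UMIs and 7.29, 19.3 and 7.43% without Car3. A marker sum of at least 2 gave 11.0% in the control and 9.83% at 60 min, no upper gene limit 23.8% at 15 min and 10.0% at 60 min, and no limit on Krt8, F3 and Gdf15 9.66% at 60 min. The 15 min share was highest of the 3 under every alternative tried.

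Counts past 2-fold depended most on the filter on low levels. A mean of 5 CPM gave 192 higher and 54 lower for 15 min over control, 303 and 14 for 60 min over control and 126 and 16 for 60 min over 15 min. No filter gave 669 and 3319, 1153 and 1778, and 2151 and 312, with genes of as few as 1 UMI included. Thinning gave 116 and 21 for 15 min over control, 145 and 9 for 60 min over control and 16 lower for 60 min over 15 min. No upper gene limit gave 190 higher for 15 min over control, 22 higher for 60 min over control and 29 higher and 28 lower for 60 min over 15 min. For 15 min over control, 17 were higher with all UMIs as the total, 104 with at most 25% mitochondrial UMIs and 21 without Car3, and 21 were lower with no limit on Krt8, F3 and Gdf15. For 60 min over control, 3 were lower with a marker sum of at least 8, 2 without Car3, and 113 were higher and 7 lower in cells with no UMI of Umod, Ccl4, Cd74 or Klk1. For 60 min over 15 min, 1 was lower with all UMIs as the total and 1 with at most 25% mitochondrial UMIs, 68 were higher with no limit on Krt8, F3 and Gdf15, and 13 lower in cells with no UMI of those 4 genes. The cause of these shifts was not tested. At a mean of 5 CPM, 448 genes were higher in S1 than in S2, and 661 higher and 422 lower in S1 than in S3.

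With all UMIs as the total, list medians (log2) for 15 min over control and 60 min over 15 min were -0.42 and 2.25 for the study's stress genes, -0.91 and 2.27 for other early response genes, -0.25 and 1.66 for heat shock, 0.5 and -0.27 for amino acid transport, 0.6 and -0.35 for brush border, -0.42 and 0.23 for ribosomal proteins and -0.24 and 0.15 for the respiratory chain, with no change of sign.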
